A study of Homo sapiens with 9 samples.

Results

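The clustered protocadherins were taken as the protein-coding genes of the count tables with symbols of the PCDHA, PCDHB and PCDHG families, which gave 53 of 60664 genes. They comprise 15 alpha genes (PCDHA1 to PCDHA13, PCDHAC1 and PCDHAC2), 16 beta genes and 22 gamma genes (12 of type A, 7 of type B and 3 of type C). They lie in that order on the plus strand of chromosome 5 of GRCh38, with the alpha cluster at chr5:140786136-141012347, the beta cluster at chr5:141051135-141249365 and the gamma cluster at chr5:141330571-141512981.

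Clustered protocadherins are cell-surface adhesion proteins of the cadherin family, best known from neurons, where combinations of isoforms bind like to like and let a cell tell its own processes from those of others. Each alpha and gamma gene has a promoter and a variable exon of its own, which encodes the extracellular domains and is spliced to constant exons shared by its cluster and encoding the cytoplasmic tail, while beta genes lack constant exons. Promoters are chosen singly in each cell through CTCF and cohesin, which join a promoter carrying a conserved element with the core CGCT to distant enhancers, and promoters that are not chosen carry DNA methylation. The C-type genes at the end of the alpha and gamma clusters are used more widely and resemble each other in sequence.

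The cells were HEK293 Flp-In T-REx, an embryonic kidney line of human origin altered so that tetracycline switches on a transgene. The 3 groups of 3 libraries were cells expressing a microRNA against TTC33, a protein with tetratricopeptide repeats, cells expressing a microRNA against CCDC97, a protein associated with the SF3B splicing complex, and control cells of the same line with no microRNA, and all were given tetracycline at 100 ng/ml for 3 days. Each microRNA is under a tetracycline-inducible promoter, and the labels do not say whether a knock-down line is 1 clone. Whether replicates came from separate cultures is not stated, and p-values therefore reflect only how these libraries vary, which could be technical variation. Counts assigned to genes were 21764203 to 36110891 per library.

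TTC33 RNA was at 9.67, 6.41 and 6.16 CPM (counts per 1e+06 scaled library counts) in TTC33 knock-down replicates 1, 2 and 3, against 37.7, 37.1 and 38.6 CPM in control. CCDC97 RNA was at 15.8, 15.3 and 15.7 CPM in CCDC97 knock-down, against 60.6, 60.1 and 59.5 CPM in control. Each target was thus low in its own knock-down. Of 9 markers of HEK293 cells all were detected in every library, from NEFM at 0.608 to 1.12 CPM up to VIM at 587 to 819 CPM. Of 8 markers of other cell types PTPRC, CD3E, ALB, MYH7 and PECAM1 were at or under 0.212 CPM, whereas COL1A1 (5.95 to 9.81 CPM), RBFOX3 (1.98 to 4.28 CPM) and GFAP (0.145 to 0.520 CPM) were detected. In both knock-downs replicates 2 and 3 stood apart from replicate 1 in how levels followed GC content. Against the control mean, the decile of genes richest in GC was shifted by a median of -0.09, 0.37 and 0.40 (log2) in TTC33 knock-down replicates 1, 2 and 3, and the poorest decile by 0.02, -0.44 and -0.48. In CCDC97 knock-down replicates 1, 2 and 3 the shifts were 0.15, -0.28 and -0.28 in the richest and -0.15, 0.16 and 0.15 in the poorest decile.

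The CGCT core was looked for in the RefSeq promoter windows (250 bases before to 50 bases after the gene start, GRCh38.p14), which were at hand for 47 of the 53 genes. The stretches below, each 26 bases long, 5′ to 3′ on the plus strand with CGCT in capitals, are those of the alpha and beta genes that rose in TTC33 knock-down as far as a window was at hand, of PCDHA8 and PCDHB4, which were nearly silent, and of the gamma genes with the highest levels, PCDHGB5 and PCDHGC3.
PCDHA8: tttgaagccacatgatgtCGCTgtct
PCDHA10: cctaaagccaccggatgtCGCTgtcg
PCDHA11: gttttaggcgcaaggtgtCGCTcttt
PCDHA12: taatcagtcacatgatgtCGCTctac
PCDHAC1: aagcctagaaggtgtggtCGCTcacg
PCDHAC2: ggctgagcagtccgggttCGCTgtcc
PCDHB2: ggaagagacgcggggtggCGCTgcag
PCDHB4: aatcaagacgcagggtggCGCTgcag
PCDHB5: aattaggacgcctggtggCGCTgcag
PCDHGB5: agtgctgactctgggcgcCGCTgttg
PCDHGC3: ggctgggactctgtgtgcCGCTgtcg
These lie at chr5:140841128-140841153 (PCDHA8), chr5:140855839-140855864 (PCDHA10), chr5:140868881-140868906 (PCDHA11), chr5:140875242-140875267 (PCDHA12), chr5:140926218-140926243 (PCDHAC1), chr5:140966363-140966388 (PCDHAC2), chr5:141094542-141094567 (PCDHB2), chr5:141121721-141121746 (PCDHB4), chr5:141135177-141135202 (PCDHB5), chr5:141397861-141397886 (PCDHGB5) and chr5:141475878-141475903 (PCDHGC3).

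The core CGCT, or AGCG for the other strand, was in the windows of 46 of the 47 genes, all but PCDHA9, but also in 70.0% of all 35116 promoter windows, so its presence alone distinguishes little. A consensus was formed per cluster from the commonest base at each of the 22 positions flanking CGCT. It used only windows with a single CGCT on the plus strand, which were 9 alpha, 10 beta and 14 gamma windows. CGCT with the 3 consensus bases before it went by cluster when searched on both strands. The alpha form TGTCGCT was in 10 of 13 alpha, 1 of 14 beta and 3 of 20 gamma genes and in 1.76% of all windows. The beta form TGGCGCT was in 0 alpha, 13 beta and 3 gamma genes and in 4.08% of all windows. The gamma form CGCCGCT was in 0 alpha, 0 beta and 10 gamma genes and in 9.45% of all windows. Each form contains CGCT and was built from the promoters counted, so the counts only describe the windows. Of the nearly silent genes PCDHA1 to PCDHA9, 7 had such a stretch. These equalled the alpha consensus at 15 to 21 of 22 flanking bases, with PCDHA8 at 19. PCDHA10 equalled it at 15, PCDHA11 at 14 and PCDHA12 at 16. The stretches of PCDHAC1 and PCDHAC2 equalled it at 6 and 10, and both rose as well. These 2 genes, with 3 CGCT each, did not enter the consensus, whereas PCDHA8, PCDHA10, PCDHA11 and PCDHA12 did, so the matches are not on equal terms. In mouse the promoter of Pcdhac2 is known to lack the element.

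Few members carried most of the reads. Between 38 and 47 of the 53 genes had at least 1 count in a library, and 26 passed the filter on low counts: 6 of 15 alpha genes (PCDHA10 to PCDHA13, PCDHAC1 and PCDHAC2), 2 of 16 beta genes (PCDHB2 and PCDHB5) and 18 of 22 gamma genes. The filter would have passed 22 members on the control libraries alone. PCDHA13 and PCDHB5 passed it through the TTC33 knock-down, where they were high, and thus had to differ. The 27 members that were not tested reached at most 4 counts in a library in the alpha cluster, 8 in the beta cluster and 13 in the gamma cluster. PCDHB6 had 0 counts in all 9 libraries, which allows up to 3 counts, or 0.0816 to 0.145 CPM depending on the library (counting error only). Reads in constant exons fit several alpha or gamma genes at once. Exon bases shared with another annotated gene were 21.3% to 63.1% of an alpha gene, 27.6% to 64.4% of a gamma gene and 0 to 24.9% of a beta gene. Which exons gave the counts is not recorded. Reads from more cells that use a promoter and reads from more RNA per cell cannot be told apart in these bulk samples.

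**Figure D1:**
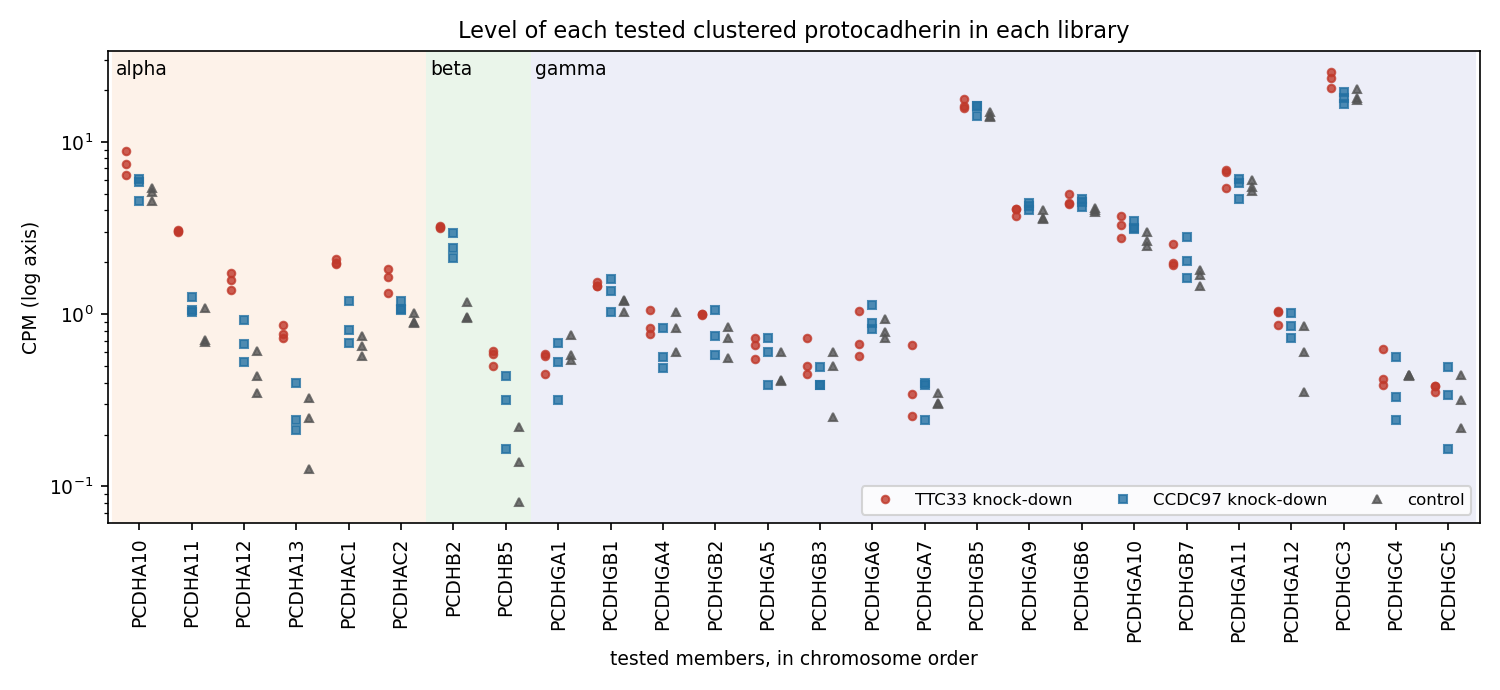
Level of each of the 26 tested clustered protocadherins in CPM on a log axis, with a point per library for TTC33 knock-down (red circles), CCDC97 knock-down (blue squares) and control (grey triangles), in chromosome order. TTC33 knock-down points lie above all control points in each of the 6 alpha and 2 beta genes and in 7 of the 18 gamma genes, beside 19.0% of all genes tested. PCDHA13 and PCDHB5 had to differ to be tested, so their separation supports nothing. PCDHGB5 and PCDHGC3 stand above the other gamma genes in every group.

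Per kilobase of unshared exon, PCDHGC3 and PCDHGB5 were the highest members. PCDHGC3 was at 7.09 ± 0.75 CPM per kb in TTC33 knock-down, 5.52 ± 0.43 in CCDC97 knock-down and 5.69 ± 0.44 in control (SD, n = 3 each). PCDHGB5 was at 6.18 ± 0.43, 5.79 ± 0.42 and 5.36 ± 0.20 CPM per kb in the same groups, and its libraries overlapped those of PCDHGC3 in each group. PCDHGA11 was at 1.74 ± 0.23 CPM per kb in TTC33 knock-down, 1.51 ± 0.21 in CCDC97 knock-down and 1.53 ± 0.11 in control, and PCDHGA9, which overlapped it in each group, at 1.54 ± 0.079, 1.65 ± 0.080 and 1.46 ± 0.10. A wide gap thus separated a pair of gamma genes, a C-type and a B-type gene, from all other members.

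The alpha and beta genes lay lower on this scale, and their place in the order moved. PCDHB2 was at 0.911 ± 0.0077 CPM per kb in TTC33 knock-down and 0.294 ± 0.035 in control, and PCDHA11 at 0.899 ± 0.012 and 0.246 ± 0.065. In TTC33 knock-down they thus stood near PCDHGB6 (0.995 ± 0.072 CPM per kb), and in control near PCDHGB2 (0.274 ± 0.057). PCDHA10 had the highest CPM of the alpha genes, but its annotated exon is long, with 9555 unshared bases, and per kilobase it was at 0.791 ± 0.129 in TTC33 knock-down and 0.524 ± 0.047 in control.

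In TTC33 knock-down the alpha and beta genes that could be tested were higher than in control, and no gamma gene passed the threshold. By edgeR's quasi-likelihood test with Benjamini-Hochberg adjustment over all genes, 8 of the 26 tested members were higher and 0 lower in TTC33 knock-down than in control, against 6.50% of all 18299 genes called higher and 5.44% called lower. At an unadjusted p below 0.05, 11 members were higher and 0 lower, and the DESeq2 Wald test called 9 higher and 0 lower. Shares of all genes called, here and below, are those of edgeR's adjusted calls in the main fit alone. The 8 were the 6 alpha genes and both beta genes. They include PCDHA13 and PCDHB5, which had to differ to be tested, so their calls support nothing. Of the 22 members that pass the filter on the control libraries alone, 6 were higher and 0 lower: PCDHA10, PCDHA11, PCDHA12, PCDHAC1, PCDHAC2 and PCDHB2, with folds of 1.51 to 3.68. Over all tested members, the count of 8 fell to 4 without control replicate 1. It fell to 5, with PCDHA13 among them, without control replicate 2. In chromosome order the 8 are the first of the tested members, from PCDHA10 to PCDHB5.

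The steepest rise within the alpha cluster was in PCDHA11, an alpha isoform with its own variable exon at chr5:140868183-141012344 (the end being that of the shared constant exons). PCDHA11 had 3.02, 2.98 and 3.06 CPM in TTC33 knock-down replicates 1, 2 and 3, 1.03, 1.06 and 1.26 CPM in CCDC97 knock-down and 0.691, 0.708 and 1.08 CPM in control. The TTC33 knock-down libraries were close together and far above all others, and control replicate 3 overlapped the CCDC97 knock-down. Its log2 fold change for TTC33 knock-down against control was 1.88 ± 0.18 (SE, adjusted p = 0.000153).

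The next genes along the chromosome are PCDHA12 and PCDHA13. PCDHA13 had to differ to be tested, so its call and its separation support nothing. PCDHA12 (chr5:140875302-141012344) had 1.57, 1.73 and 1.38 CPM in TTC33 knock-down, 0.672, 0.529 and 0.919 CPM in CCDC97 knock-down and 0.608, 0.435 and 0.349 CPM in control (TTC33 against control: log2 fold change 1.73 ± 0.25, adjusted p = 0.00203). PCDHA13 (chr5:140882208-141012344) had 0.771, 0.867 and 0.727 CPM in TTC33 knock-down, 0.212, 0.396 and 0.242 CPM in CCDC97 knock-down and 0.249, 0.327 and 0.127 CPM in control (1.71 ± 0.33, adjusted p = 0.00997). In both genes every TTC33 knock-down library was above every other library, and the other groups overlapped. PCDHA13 rests on 19 to 25 counts per TTC33 knock-down library and 4 to 12 per control library, and without control replicate 1 its adjusted p was 0.0504.

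PCDHA10, the alpha gene with most counts (chr5:140855883-141012344), had 8.84, 6.38 and 7.46 CPM in TTC33 knock-down, 4.53, 5.85 and 6.05 CPM in CCDC97 knock-down and 5.36, 5.14 and 4.50 CPM in control. The lowest TTC33 knock-down library was just above the highest of the others, and the rise was small, at 0.59 ± 0.15 on the log2 scale (adjusted p = 0.0290). The call was lost without control replicate 1, 2 or 3 or TTC33 knock-down replicate 3 (adjusted p of 0.0837, 0.0985, 0.113 and 0.0909), with log2 fold changes of 0.52 to 0.64 in those fits.

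The C-type alpha genes differ from the others in that their variable exons come last in the cluster, nearest the constant exons. PCDHAC1 (chr5:140926369-141012344) had 2.09, 1.98 and 1.95 CPM in TTC33 knock-down, 0.814, 1.19 and 0.677 CPM in CCDC97 knock-down and 0.746, 0.653 and 0.571 CPM in control, a log2 fold change of 1.60 ± 0.21 for TTC33 against control (adjusted p = 0.00106). PCDHAC2 (chr5:140966235-141012344) had 1.32, 1.84 and 1.64 CPM in TTC33 knock-down, 1.06, 1.19 and 1.06 CPM in CCDC97 knock-down and 0.884, 0.898 and 1.01 CPM in control (0.78 ± 0.18, adjusted p = 0.0221). TTC33 knock-down libraries stood apart from all others in both, by a wide margin in PCDHAC1 and a narrow one in PCDHAC2. The PCDHAC2 call was lost without any of control replicates 1, 2 and 3 or TTC33 knock-down replicates 2 and 3 (adjusted p of 0.0970, 0.0944, 0.0607, 0.104 and 0.0847), whereas PCDHAC1, PCDHA11, PCDHA12 and PCDHB2 kept theirs in all 9 fits that left out a library.

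PCDHB2, a beta gene with no constant exon at chr5:141094578-141098703, was higher than in control in both knock-downs. It had 3.18, 3.22 and 3.17 CPM in TTC33 knock-down, 2.94, 2.41 and 2.13 CPM in CCDC97 knock-down and 0.967, 1.17 and 0.951 CPM in control. The 3 groups did not overlap, and TTC33 knock-down was the highest. The log2 fold change was 1.63 ± 0.16 for TTC33 against control (adjusted p = 0.000175).

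PCDHB5 (chr5:141135218-141138625) had 0.610, 0.589 and 0.497 CPM in TTC33 knock-down, 0.318, 0.165 and 0.436 CPM in CCDC97 knock-down and 0.138, 0.0816 and 0.222 CPM in control. TTC33 knock-down was above both other groups, which overlapped, but the values rest on 13 to 19 counts per TTC33 knock-down library and 3 to 7 per control library. PCDHB5 had to differ to be tested, so its call and its separation support nothing. The log2 fold change for TTC33 against control was 1.95 ± 0.41 (adjusted p = 0.0138), and the adjusted p was 0.0684 without control replicate 1, 0.0741 without control replicate 2 and 0.0577 without TTC33 knock-down replicate 2.

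The other beta genes were too low to test singly. PCDHB15, the highest of them by mean CPM over all 9 libraries, had 3, 6 and 5 counts in TTC33 knock-down, 3, 4 and 4 in CCDC97 knock-down and 2, 4 and 1 in control, which does not separate the groups. PCDHB14, named after its values were seen, had 6, 7 and 8 counts in TTC33 knock-down, 2, 0 and 0 in CCDC97 knock-down and 4, 2 and 3 in control, and TTC33 knock-down was above both other groups. Summed over the 14 beta genes other than PCDHB2 and PCDHB5, counts were 34, 39 and 30 in TTC33 knock-down, 24, 13 and 18 in CCDC97 knock-down and 12, 23 and 16 in control, or 1.20 ± 0.14, 0.716 ± 0.249 and 0.488 ± 0.148 CPM. TTC33 knock-down libraries were all above the control libraries in this sum, and CCDC97 knock-down overlapped control. The 9 genes PCDHA1 to PCDHA9 together had 8, 6 and 8 counts in TTC33 knock-down, 5, 5 and 0 in CCDC97 knock-down and 6, 3 and 4 in control, so these promoters gave almost no reads in any group.

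**Figure D2:**
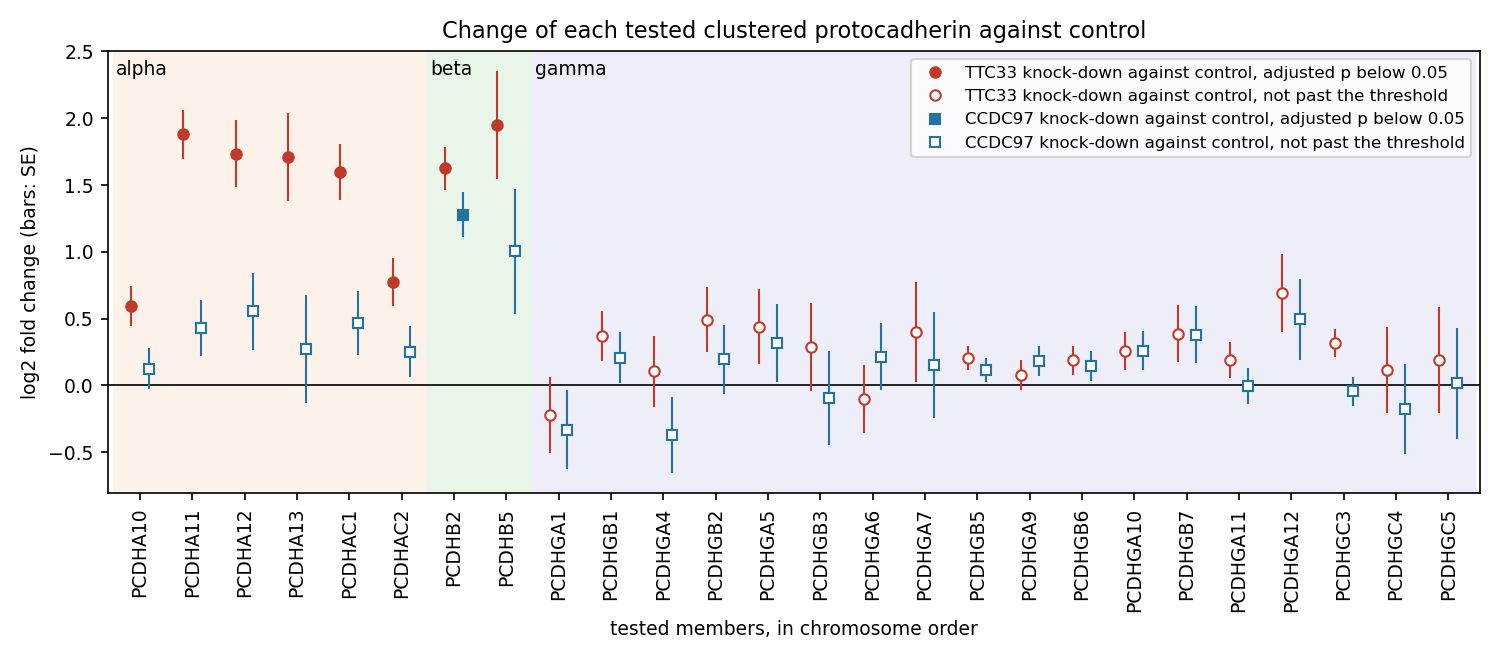
Log2 fold change against control of each of the 26 tested members in chromosome order, for TTC33 knock-down (red circles) and CCDC97 knock-down (blue squares), with bars for the SE and filled symbols for an adjusted p below 0.05. Filled red symbols cover the 6 alpha and 2 beta genes and none of the 18 gamma genes, and the single filled blue symbol is PCDHB2. PCDHA13 and PCDHB5 had to differ to be tested, so their filled red symbols support nothing.

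In the gamma cluster 0 of 18 tested genes passed the threshold in TTC33 knock-down against control by edgeR. At an unadjusted p below 0.05, 3 were higher (PCDHGB5, PCDHGA12 and PCDHGC3) and 0 lower, and DESeq2 called 1, PCDHGC3. Log2 fold changes ran from -0.22 to 0.69 with 16 of 18 above 0. In 7 genes (PCDHGB1, PCDHGB2, PCDHGB5, PCDHGB6, PCDHGB7, PCDHGA12 and PCDHGC3) all TTC33 knock-down libraries were above all control libraries and in 0 below, where 19.0% of all genes tested were above and 17.8% below.

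PCDHGC3, a C-type gene and with PCDHGB5 the most highly expressed, (chr5:141475947-141512979), had 20.5, 23.3 and 25.3 CPM in TTC33 knock-down, 17.9, 16.6 and 19.4 CPM in CCDC97 knock-down and 17.5, 17.9 and 20.1 CPM in control. TTC33 knock-down was above control in every library, by little. Its log2 fold change was 0.32 ± 0.10 (adjusted p = 0.0694), and without TTC33 knock-down replicate 1 it was 0.39 with an adjusted p of 0.00831. PCDHGB5 (chr5:141397987-141512979) had 16.0, 17.8 and 15.6 CPM in TTC33 knock-down, 16.1, 16.1 and 14.2 CPM in CCDC97 knock-down and 14.0, 14.0 and 14.9 CPM in control (0.20 ± 0.09, adjusted p = 0.151). PCDHGA11 (chr5:141421047-141512979) had 5.37, 6.69 and 6.89 CPM in TTC33 knock-down, 6.05, 5.78 and 4.65 CPM in CCDC97 knock-down and 5.17, 5.50 and 5.96 CPM in control, and the groups overlapped (0.19 ± 0.13, adjusted p = 0.366). Without replicate 1 of both knock-downs, PCDHGC3 (0.40, adjusted p = 0.000466), PCDHGB5 (0.23, adjusted p = 0.0314), PCDHGA11 (0.29, adjusted p = 0.0404) and PCDHGB7 (0.47, adjusted p = 0.0462) passed. Calls among regulators, partners and neighbouring genes rose in that fit as well. The share of all genes called in it is not given here, so these gamma calls cannot be set against it. All of these gamma changes are smaller than those of PCDHA11 or PCDHB2. The clusters overlapped in size of change, with PCDHGA12 at 0.69 ± 0.29 (edgeR adjusted p = 0.134) and PCDHA10 at 0.59 ± 0.15. The difference between clusters was not itself tested.

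GC content differed between the clusters, and libraries differed in how levels followed it. The 8 members that rose had GC contents of 42.0% to 49.7% over their exons, and the gamma genes tested had 54.1% to 56.7%, apart from PCDHGB6 (46.9%) and PCDHGA6 (46.1%). In TTC33 knock-down replicate 1 the GC trend was near 0, and there each of the 8 members was above all control libraries. PCDHA10 was higher in that replicate (8.84 CPM) than in replicates 2 and 3 (6.38 and 7.46 CPM), and PCDHAC2 was lower (1.32 CPM, against 1.84 and 1.64 CPM). With an offset for GC content and length the 8 members passed with adjusted p of 3.9e-06 to 0.0119, and 0 gamma genes passed. The log2 fold changes were then 0.63 for PCDHA10, 1.88 for PCDHA11, 1.70 for PCDHA12, 1.67 for PCDHA13, 1.59 for PCDHAC1, 0.72 for PCDHAC2, 1.59 for PCDHB2 and 1.91 for PCDHB5. PCDHA13 and PCDHB5 had to differ to be tested, so their values in these comparisons support nothing. The part of GC content in the difference between clusters was not tested.

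Some cell markers moved as well. Of the 9 HEK293 markers 2 were higher and 0 lower in TTC33 knock-down than in control, beside 6.50% and 5.44% of all genes. INA, a neuronal intermediate filament gene, had 96.4, 94.9 and 99.5 CPM in TTC33 knock-down, 61.8, 64.8 and 65.2 CPM in CCDC97 knock-down and 56.9, 56.3 and 57.8 CPM in control (0.77 ± 0.06, adjusted p = 4.86e-05), and VIM, the filament protein vimentin, had 707, 819 and 813 CPM, 633, 587 and 587 CPM, and 613, 608 and 625 CPM in the same groups (0.34 ± 0.07, adjusted p = 0.0140). In both genes TTC33 knock-down was above every other library. The other 7 summed to 444 to 468 CPM in TTC33 knock-down, 397 to 418 CPM in CCDC97 knock-down and 407 to 420 CPM in control. The 8 markers of other cell types summed to 10.2 to 14.8 CPM, 8.42 to 12.1 CPM and 10.1 to 12.2 CPM in the same groups. Of the 3 tested, 0 passed in either knock-down against control. RBFOX3 was called higher in TTC33 than in CCDC97 knock-down, where 11.3% of all genes were. It lost that call without replicate 2 or 3 of either knock-down (edgeR adjusted p of 0.0807 to 0.107). Without TTC33 knock-down replicate 1 RBFOX3 also passed against control (0.61, edgeR adjusted p = 0.00747). The share of all genes called in that fit is not given here. The part of these markers in the protocadherin result was not tested.

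Summed over each cluster, the alpha genes were at 17.9, 16.0 and 16.5 CPM in TTC33 knock-down, 8.49, 10.4 and 10.2 CPM in CCDC97 knock-down and 8.71, 8.25 and 7.77 CPM in control. The beta genes were at 4.88, 5.17 and 4.82 CPM in TTC33 knock-down, 4.10, 3.01 and 3.44 CPM in CCDC97 knock-down and 1.44, 1.88 and 1.68 CPM in control. The gamma genes were at 63.4, 71.9 and 70.8 CPM in TTC33 knock-down, 63.0, 60.2 and 58.7 CPM in CCDC97 knock-down and 56.5, 56.5 and 59.9 CPM in control. All 3 sums were above control in every TTC33 knock-down library, at 2.04 times the control mean for alpha, 2.98 for beta and 1.19 for gamma. In CCDC97 knock-down only the beta sum was above control in every library, at 2.11 times, with 1.18 for alpha and 1.05 for gamma. The sums carry no test, and 3 libraries against 3 could not give an exact two-sided permutation p under 0.10.

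**Figure D3:**
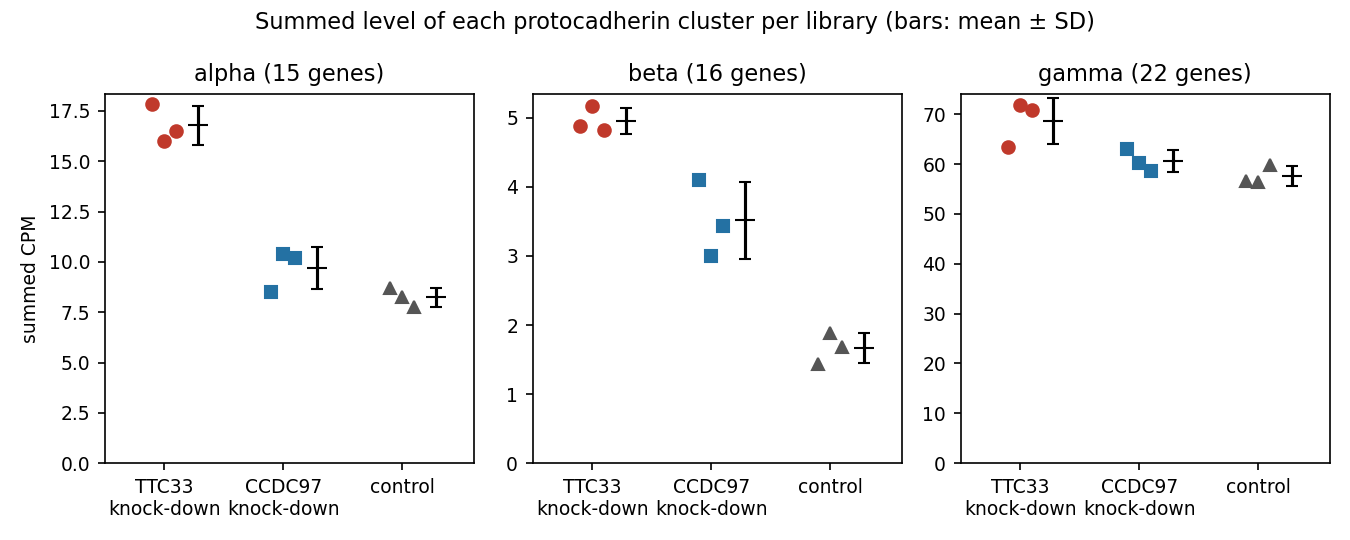
Summed CPM of the 15 alpha, 16 beta and 22 gamma genes per library on axes from 0, with a symbol per library and the mean ± SD beside each group. Alpha was at 16.8 ± 0.97 CPM in TTC33 knock-down, 9.69 ± 1.04 in CCDC97 knock-down and 8.24 ± 0.47 in control, while gamma was at 68.7 ± 4.6, 60.6 ± 2.2 and 57.6 ± 1.9.

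The make-up of the repertoire shifted with these sums. Alpha genes made up 20.7%, 17.2% and 17.9% of all member counts in TTC33 knock-down, 11.2%, 14.1% and 14.1% in CCDC97 knock-down and 13.1%, 12.4% and 11.2% in control. Beta genes made up 5.48% ± 0.23 in TTC33 knock-down, 4.75% ± 0.67 in CCDC97 knock-down and 2.47% ± 0.33 in control, and gamma genes 75.9% ± 2.0, 82.1% ± 1.1 and 85.3% ± 0.9 (SD, n = 3 each). TTC33 knock-down libraries did not overlap control in any of these 3 shares, and gamma genes remained the bulk of the counts throughout.

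Within the alpha cluster counts were spread more evenly over promoters in TTC33 knock-down. PCDHA10 gave 49.5%, 39.9% and 45.1% of alpha counts in TTC33 knock-down, 53.3%, 56.4% and 59.2% in CCDC97 knock-down and 61.6%, 62.4% and 58.0% in control. PCDHA11 gave 16.9%, 18.7% and 18.5% in TTC33 knock-down, 12.1%, 10.2% and 12.3% in CCDC97 knock-down and 7.94%, 8.58% and 13.9% in control. PCDHAC1 gave 11.7%, 12.4% and 11.8% in TTC33 knock-down, 9.58%, 11.5% and 6.64% in CCDC97 knock-down and 8.57%, 7.92% and 7.35% in control. PCDHA10 remained the leading alpha gene in all 9 libraries, with a share in TTC33 knock-down below every other library. Without PCDHA10 the other 14 alpha genes summed to 9.23 ± 0.32 CPM in TTC33 knock-down, 4.22 ± 0.29 in CCDC97 knock-down and 3.24 ± 0.12 in control. PCDHB2 gave 64.5% ± 1.8 of beta counts in TTC33 knock-down, 71.2% ± 9.1 in CCDC97 knock-down and 62.1% ± 5.4 in control, and PCDHGB5 with PCDHGC3 gave 57.6% ± 0.34, 55.1% ± 1.7 and 56.9% ± 1.5 of gamma counts. Each knock-down overlapped control in both of these shares.

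**Figure D4:**
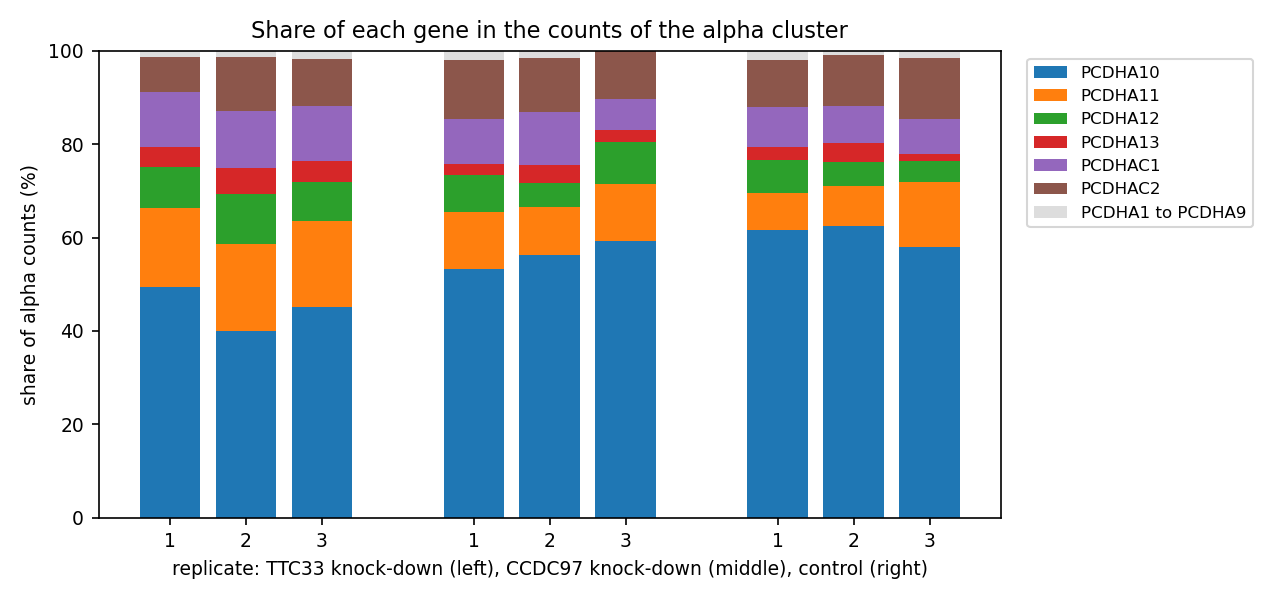
Share in percent of each alpha gene in the summed alpha counts of each library, stacked to 100%, with TTC33 knock-down at the left, CCDC97 knock-down in the middle and control at the right. PCDHA10 (bottom segment) takes 39.9% to 49.5% in TTC33 knock-down and 58.0% to 62.4% in control, and the segments of PCDHA11, PCDHA12, PCDHA13 and PCDHAC1 are wider in each TTC33 knock-down library than in any control library. PCDHA13 had to differ to be tested.

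In CCDC97 knock-down against control, 1 of the 26 tested members passed the threshold, PCDHB2, with a log2 fold change of 1.28 ± 0.17 (edgeR adjusted p = 0.00231), against 2.07% of all genes called higher and 2.49% lower. No member was lower, and PCDHB2 was also the only one at an unadjusted p below 0.05. It was the only one called among the 17 members that DESeq2 gave an adjusted p. It kept its call without any single library, at log2 fold changes of 1.14 to 1.38. Among the alpha genes 0 of 6 passed with edgeR and 0 had an unadjusted p below 0.05, at log2 fold changes of 0.12 to 0.55 that were all above 0. DESeq2 called 0 of the 5 alpha genes that it gave an adjusted p. Of the 26, all CCDC97 knock-down libraries were above all control libraries in PCDHAC2, PCDHB2, PCDHGB6 and PCDHGA10, where 14.9% of all genes tested were above. PCDHB5 had a log2 fold change of 1.00 ± 0.47 (adjusted p = 0.257). For the gamma genes 0 of 18 passed in edgeR and 0 had an unadjusted p below 0.05, and log2 fold changes were -0.37 to 0.49. DESeq2 gave only 11 of the 18 an adjusted p and called 0. Both knock-downs were set against the same 3 control libraries, so a deviation of those libraries enters both comparisons.

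The direct comparison of TTC33 knock-down with CCDC97 knock-down does not use the control levels. It gave 6 members higher and 0 lower in TTC33 knock-down, where 11.3% of all genes were called higher and 10.2% lower. They were PCDHA11 (log2 fold change 1.45 ± 0.18, adjusted p = 0.000654), PCDHA13 (1.44 ± 0.34, adjusted p = 0.0147), PCDHA12 (1.18 ± 0.25, adjusted p = 0.00917), PCDHAC1 (1.13 ± 0.21, adjusted p = 0.00480), PCDHA10 (0.47 ± 0.15, adjusted p = 0.0481) and PCDHGC3 (0.36 ± 0.11, adjusted p = 0.0332). PCDHA13 again had to differ to be tested. Of the members that pass the filter on control alone, 5 of 22 were higher, among them 4 of 5 alpha genes. DESeq2 gave 20 members an adjusted p and called 5 higher, of which 4 were alpha genes, and 0 lower. By edgeR 9 were higher at an unadjusted p below 0.05. PCDHAC2 missed the threshold (0.52 ± 0.18, adjusted p = 0.0637) and passed without TTC33 knock-down replicate 1 (0.65, adjusted p = 0.0189). PCDHA12 lost its call without CCDC97 knock-down replicate 2 (adjusted p = 0.0520), and PCDHA13 without CCDC97 knock-down replicate 3 or TTC33 knock-down replicate 2 (adjusted p of 0.0554 and 0.0595). PCDHB2 differed by 0.35 ± 0.15 (adjusted p = 0.113) between the knock-downs and PCDHB5 by 0.95 ± 0.38 (adjusted p = 0.0919), neither past the threshold. Without CCDC97 knock-down replicate 1 PCDHB2 passed (0.48, adjusted p = 0.0363). Calls of PCDHA10 and PCDHGC3 were lost in 8 and 6 of the 9 fits without a library, and without CCDC97 knock-down replicate 2 or 3 the count fell to 3.

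Among genes beside the clusters, those that passed the test in TTC33 knock-down rose by 0.30 to 0.53 on the log2 scale. Of 31 other protein-coding genes within 500 kb of the clusters or between them, 27 were tested, and 6 were higher and 0 lower in TTC33 knock-down than in control, beside 6.50% and 5.44% of all genes. DESeq2 called 9 higher and 0 lower. The 27 had a median log2 fold change of 0.20, beside 0.0045 over all genes, and ran from -0.54 to 0.80. The largest change among the 6 was in PCDH1, a protocadherin outside the clusters, with 12.8, 14.5 and 13.4 CPM in TTC33 knock-down, 9.02, 6.41 and 6.39 CPM in CCDC97 knock-down and 8.57, 9.99 and 9.70 CPM in control (0.53 ± 0.13, adjusted p = 0.0297). The other genes named rose less: HBEGF, a growth factor, by 0.39 ± 0.10, IK, a splicing factor, by 0.36 ± 0.07, HARS1, the cytosolic histidyl-tRNA synthetase, by 0.31 ± 0.07 and PFDN1, a prefoldin subunit, by 0.30 ± 0.08. TAF7, a TFIID subunit whose gene lies between the beta and gamma clusters, had 156, 148 and 143 CPM in TTC33 knock-down, 142, 171 and 153 CPM in CCDC97 knock-down and 136, 139 and 143 CPM in control, with the groups overlapping (TTC33 against control 0.10 ± 0.08, adjusted p = 0.403). SLC25A2, a mitochondrial carrier gene also between the clusters, was too low to test, at 0 to 0.212 CPM. In CCDC97 knock-down 4 neighbours were higher and 0 lower, beside 2.07% and 2.49% of all genes, at a median of 0.03 beside 0.00083 over all genes: ZMAT2, a splicing factor (0.43 ± 0.10), HARS2, the mitochondrial histidyl-tRNA synthetase (0.38 ± 0.08), PFDN1 (0.34 ± 0.08) and IK (0.32 ± 0.07). Each of these neighbour calls was lost in 4 to 7 of the 9 fits without a library. Of 6 protocadherin pseudogenes of the locus 2 were tested (PCDHGB8P and PCDHGB9P), and 0 passed in either knock-down with edgeR or had an unadjusted p below 0.05. DESeq2 also called 0, with an adjusted p for 2 in TTC33 knock-down and for 1 in CCDC97 knock-down.

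**Figure D5:**
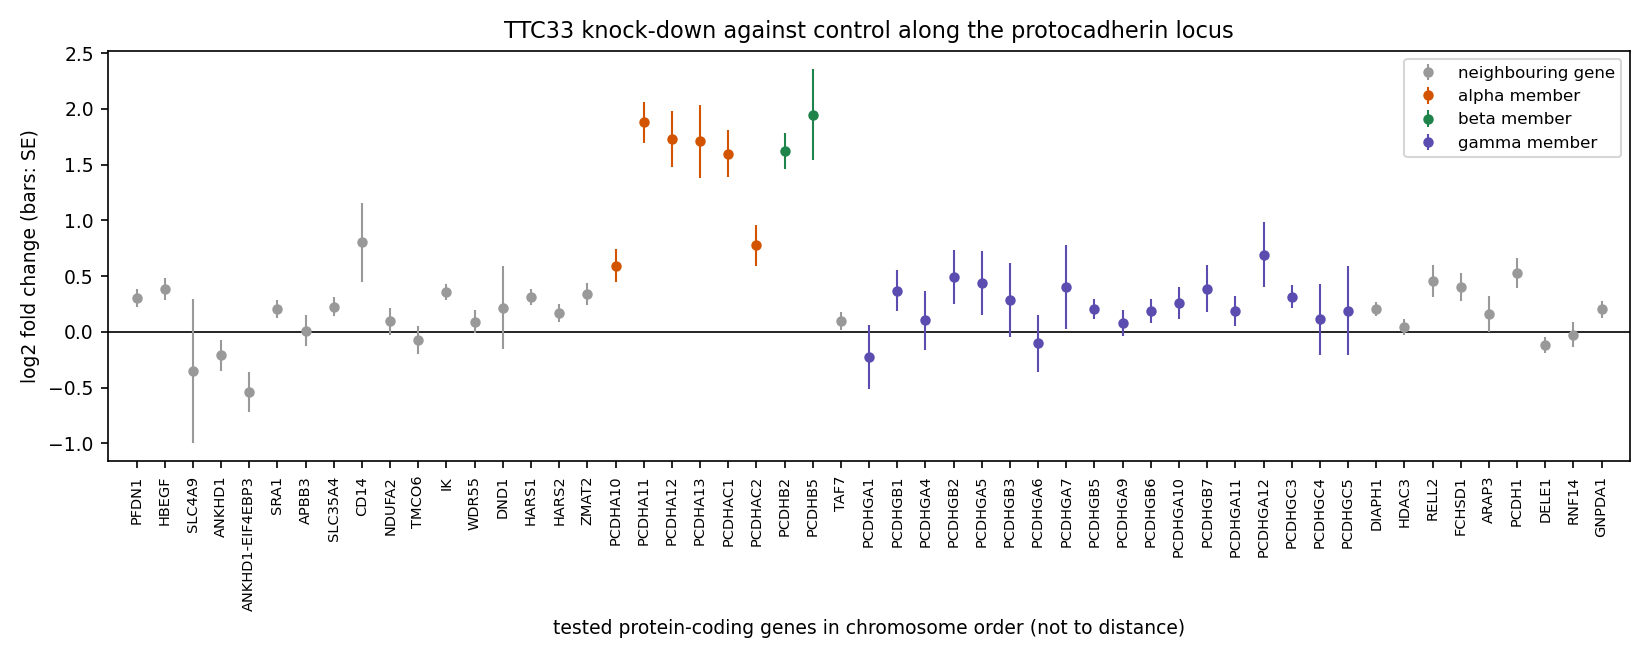
Log2 fold change with SE for TTC33 knock-down against control of the tested members and of the tested neighbouring protein-coding genes in chromosome order, spaced by rank and not by distance. The alpha and beta members lie between 0.59 and 1.95, among them PCDHA13 and PCDHB5, which had to differ to be tested. TAF7 is at 0.10 and the 6 neighbours that passed lie between 0.30 and 0.53. All tested neighbours lie between -0.54 and 0.80, a range that takes in PCDHA10 (0.59) and PCDHAC2 (0.78).

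Regulators of the clusters were mostly without a call. Of 30 genes for CTCF, cohesin, DNA methylation and silencing complexes, all tested, 3 were higher and 2 lower in TTC33 knock-down than in control, where 6.50% of all genes were called higher and 5.44% lower, so the list's share is not far from that of all genes. DESeq2 called 3 higher and 4 lower. The list was at a median log2 fold change of -0.02. The lower ones were REST, a repressor of neuronal genes, with 70.9, 53.2 and 55.6 CPM in TTC33 knock-down, 89.3, 110 and 117 CPM in CCDC97 knock-down and 97.3, 97.6 and 95.7 CPM in control (-0.69 ± 0.12, adjusted p = 0.00601), and SMCHD1, a chromatin protein that keeps protocadherin genes silent in mouse, with 238, 190 and 186 CPM in TTC33 knock-down, 223, 243 and 259 CPM in CCDC97 knock-down and 257, 268 and 262 CPM in control (-0.36 ± 0.10, adjusted p = 0.0363). In both genes the TTC33 knock-down libraries were below all control libraries, and replicates 2 and 3 were lower than replicate 1. The higher ones were TET3, an enzyme that oxidises methylated DNA (0.42 ± 0.08, adjusted p = 0.0110), MAU2, a loader of cohesin (0.37 ± 0.10, adjusted p = 0.0377), and MORC2, an ATPase of gene silencing (0.27 ± 0.07, adjusted p = 0.0333). CTCF had 120, 121 and 132 CPM in TTC33 knock-down, 122, 118 and 132 CPM in CCDC97 knock-down and 112, 110 and 115 CPM in control (TTC33 against control 0.14 ± 0.07, adjusted p = 0.187), and RAD21, a cohesin subunit, changed by -0.05 ± 0.09 (adjusted p = 0.763). In CCDC97 knock-down 0 of the 30 passed with edgeR, 5 had an unadjusted p below 0.05 and DESeq2 called 2 higher and 2 lower. With the offset for GC content and length REST was at -0.57 (adjusted p = 4.81e-06) and SMCHD1 at -0.19 (adjusted p = 0.00534). REST kept its call in all 9 fits without a library, whereas SMCHD1, TET3, MORC2 and MAU2 lost theirs in 5, 4, 6 and 7. Over regulators, partners and neighbours together 16 genes passed, and 3 to 37 when a library was left out, with 37 without TTC33 knock-down replicate 1 and 3 without replicate 3. The shares of all genes called in those fits are not given here. The part of the regulators' changes in the levels of the protocadherins was not tested.

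Among 21 partners and signalling proteins of the protocadherins, all tested, 1 was higher and 4 lower in TTC33 knock-down by edgeR, and 3 higher and 4 lower by DESeq2, beside 6.50% higher and 5.44% lower among all genes. The median log2 fold change was -0.04. The lower ones included PTK2, a focal adhesion kinase bound by protocadherin tails, with 70.9, 62.9 and 60.3 CPM in TTC33 knock-down, 98.2, 98 and 101 CPM in CCDC97 knock-down and 87.8, 89.7 and 92.7 CPM in control (-0.48 ± 0.07, adjusted p = 0.00309). ADAM10, a protease that sheds protocadherin ectodomains, had 80.5, 61.1 and 58.7 CPM in TTC33 knock-down, 98.5, 118 and 116 CPM in CCDC97 knock-down and 102, 105 and 107 CPM in control (-0.65 ± 0.12, adjusted p = 0.00697). Every TTC33 knock-down library was below every control library in both, and both kept their calls in all 9 fits without a library. ABI2, a subunit of the actin-regulating WAVE complex (-0.35 ± 0.08), and MARCKS, an actin-binding protein (-0.39 ± 0.11), were also lower and FYN, a kinase of the Src family, was higher (0.25 ± 0.07), but these lost their calls in 5, 7 and 6 of the 9 fits. In CCDC97 knock-down 0 of the 21 passed with edgeR, with 4 at an unadjusted p below 0.05 and 4 called by DESeq2.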

How the data were processed

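Gene counts of 9 RNA libraries were analysed, with groups and replicate numbers as labelled. The authors deposited raw whole-number counts per gene. The submitters' processing notes list Trimmomatic 0.39, HISAT2 and HTSeq 2.0.1 and the build GRCh38. The annotation release is not given in the sources used here, nor is the strand setting, so antisense overlaps cannot be resolved. Tables marked R12 were used, and smaller ones marked U were added as an alternative. Between 33.4% and 57.9% of R12 counts named no gene and were dropped, among them 3.90% to 6.11% that fit several genes (ambiguous), the class for reads in exons that protocadherins share.
edgeR 4.0.16 (R 4.3.3) kept 18299 of 60664 genes with filterByExpr, and TMM factors set the scale. The quasi-likelihood fit took all 9 libraries, with groups as the sole terms. Tests were two-sided, with Benjamini-Hochberg adjustment across these genes and a threshold of 0.05. Each SE was derived from the test statistic. CPM use TMM-scaled totals. In simulated counts for the TTC33 comparison over 18299 genes, changed genes were drawn only from those at a mean of at least 1 CPM. Of these, 96% of genes changed by 1 log2 unit and 100% of those changed by 2 were recovered. The shares do not cover members under 1 CPM or smaller changes.
Coordinates, exon lengths and GC content come from GENCODE release 29 on GRCh38, which the deposited counts need not share, and promoter windows from RefSeq on GRCh38.p14. Levels per kilobase divide by exon bases that no other gene shares. The CGCT shown for a gene is the one whose flanks equal most bases of its cluster's consensus.
Members and gene lists were chosen with earlier results of these data known. Members past the threshold in any comparison, or among the 3 with the highest mean CPM of their cluster, are named with all values. From each list at most 5 genes past the threshold per comparison are named, and CTCF, RAD21, SMCHD1 and the genes between clusters in any case. Alternatives were other size factors, other low-count filters, DESeq2 1.42.0, fitting only the pair of groups compared, a replicate block, added U counts, an offset for GC content and length (mgcv 1.9.3) and leaving out libraries. Within groups, no libraries were alike within counting noise (chi-square per degree of freedom 3.61 to 39.5).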

Additional observations from a re-analysis of the deposited data

How the results depend on the processing

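Replicate numbers did not pair the libraries, since deviations of same-numbered libraries correlated at -0.50 to 0.09. With a replicate block 6 members passed in TTC33 knock-down against control, in place of 8, with PCDHA10 at an adjusted p of 0.0913 and PCDHAC2 at 0.0545. With a mean of at least 1 CPM 5 members passed, and leaving out a library gave 4 to 9. PCDHB2 passed in CCDC97 knock-down under every alternative run. In TTC33 against CCDC97 knock-down 3 to 6 members passed when a library was left out, in place of 6. Over regulators, partners and neighbours, 16 genes passed in TTC33 knock-down: 6 with the block, 32 with the offset for GC content and length, 28 with both, 52 without replicate 1 of both knock-downs and 3 to 37 without a library. In CCDC97 knock-down 4 passed: 12 with the DESeq2 Wald test, 1 with the block, 15 with the offset, 15 with both, 43 without replicate 1 of both knock-downs and 0 to 13 without a library. The shares of all genes called in these fits are not given here, so the counts show only how calls vary with the fit. The log2 ratio of the gamma sum was 0.13 for TTC33 and 0.14 for CCDC97 with the offset, in place of 0.25 and 0.07. Changes near 0 turned direction. In CCDC97 knock-down PCDHGA11 was at 0.0025 with DESeq2 size factors, 0.0034 with the DESeq2 Wald test, 0.048 with U counts added, 0.0707 with the offset and 0.0713 with block and offset, and -0.0754 to 0.0910 without a library. PCDHGC3 was at 0.0375 with the offset, 0.0397 with block and offset, and -0.105 to 0.0181 without a library. PCDHA13 was at -0.0886 to 0.584 without a library. In TTC33 against CCDC97 knock-down PCDHGB5 was at -0.11 with the offset and -0.11 with block and offset, and PCDHGA11 at -0.0177 and -0.0192. The cause was not tested. Of 612 values of the 11 named members that were tested, over all alternatives and comparisons, 545 kept direction and side of the threshold, 40 lost a call, 11 gained one and 16 turned direction. Depth limits the 27 untested members, with at most 13 counts in a library.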
